A study of Mus musculus with 6 samples.

Results

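The genes described here encode the cytokine IL-10 and 8 receptor chains through which cells sense IL-10, IL-12, IL-23, IL-27, IL-6 and their relatives. They are Il10, Il10ra, Il10rb, Il12rb1, Il12rb2, Il27ra, Il6ra, Il6st and Il20rb. They were taken by symbol from a table of 53278 genes, and all 9 were found in it. RNA was sequenced from type-2 innate lymphoid cells (ILC2s) sorted from the visceral adipose tissue (VAT) of 8-week-old C57BL/6 mice that had received 3 intraperitoneal injections of 1 µg IL-33. The cells of both groups were cultured with IL-2 and IL-7 (10 ng/mL each), and either with DTA-1 (5 µg/mL), an agonistic antibody to the costimulatory receptor GITR, or with its isotype control. Each group had 3 libraries, prepared from 10 ng of RNA. The sample labels give a culture of 48 h, while the study's results text gives a shorter one. No source states whether the libraries came from separate mice or cultures, so p-values measure the spread between these libraries only. All cells had seen IL-33 in vivo, so there is no naïve group.

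Cytokine receptors of this kind work in pairs. A chain that is particular to the cytokine joins a chain that several cytokines share, and the pair brings JAK kinases together, which phosphorylate STAT transcription factors. IL-10 uses IL-10Rα (Il10ra) with the shared IL-10Rβ (Il10rb), IL-12 uses IL-12Rβ1 (Il12rb1) with IL-12Rβ2 (Il12rb2), and IL-23 uses IL-12Rβ1 with the IL-23 receptor. IL-27, IL-6, IL-11, LIF and oncostatin M all use gp130 (Il6st) with a further chain. In ILC2s, IL-27 is known as a brake on proliferation and type 2 cytokine output, IL-12 is known to turn the cells towards interferon γ production, and some activated ILC2s make IL-10.

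Library totals lay between 30569351 and 35131329 counts. A gene with 0 counts could still have reached 3, or 0.0854 to 0.0981 CPM, as far as counting error goes. Normalized counts below are CPM (counts scaled to library size) after TMM normalization, and groups are called apart where every DTA-1 library lay above, or every one below, all isotype control libraries. One library stood apart from its label. The chi-square distance between count profiles, divided by its degrees of freedom, placed DTA-1 replicate 1 at 9.64 to 11.3 from the isotype control libraries and at 27.1 to 28.2 from DTA-1 replicates 2 and 3, which were 11.4 apart from each other. It was kept under its label, and each member's test is also given without it. Leaving it out picks libraries by their measured profile, so the values without it are no independent support for a difference. Over all 6 libraries edgeR called 0 of 14361 genes (0.0%), a call being an adjusted p below 0.05 together with 1.5-fold or more. Taking p unadjusted gave 337 genes, and the Wald test of DESeq2 called 20 (0.099% of its genes). Without DTA-1 replicate 1 edgeR called 111 of 14911 genes. The ILC2 markers Gata3, Il1rl1, Rora, Klrg1, Il7r and Kit were present in every library. Markers of natural killer cells (Ncr1, Klrb1c, Klre1), B cells (Ms4a1), neutrophils (S100a8, S100a9) and CD8+ T cells (Cd8a) were at 0 in all 6 libraries. Other markers of these lists had counts. Over the 6 libraries the 8 T cell markers summed to 43.5 to 57.1 normalized counts, mostly Cd3g, the 4 B cell markers to 16.6 to 18.2, mostly Cd79b, the 4 neutrophil markers to at most 1.05 and the 4 natural killer or ILC1 markers to at most 0.113. Some marker sums differed in DTA-1 replicates 2 and 3, as several receptor genes below did. The 4 mast cell or basophil markers, none at 0 throughout, summed to 6.41 to 10.8 normalized counts in isotype control, 8.77 in DTA-1 replicate 1 and 17.1 to 22.2 in replicates 2 and 3. The 4 endothelial markers, with Cdh5 at 0, summed in the same order to 18.4 to 24.4, 18.3 and 10.6 to 10.8. The 13 ILC2 markers, none at 0, summed to 11976 to 12558, 12729 and 15853 to 16754, and this sum followed Il5, at 5063 to 5493, 5627 and 8899 to 9695. Without Il5, a choice made after its values were seen, the other 12 summed to 6913 to 7140, 7102 and 6954 to 7059. Of the 13, 8 had a fold change below 0 and 5 above it (median log2 fold change −0.04), and without DTA-1 replicate 1 edgeR called Il5 and Areg higher and Icos lower. Their part in the results below was not tested.

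The receptor chains ranged from abundant to near-absent, and the partners needed for IL-12, IL-23, IL-6 and IL-22 receptors were not detected or barely so. Normalized counts per kb of exon were used to set genes against each other. In isotype control Il12rb1 was highest at 78.2 ± 1.78 per kb (SD, n = 3 here and below), followed by Il27ra at 39.0 ± 0.919, Il10ra at 35.6 ± 1.10, Il10rb at 19.6 ± 1.38 and Il6st at 1.53 ± 0.254. Il10 (0.577 ± 0.0605 per kb), Il20rb (0.144 ± 0.0288 per kb) and Il6ra (0.0197 ± 0.0170 per kb) followed, and Il12rb2 had no counts. No neighbours in this order overlapped in isotype control. The order was the same in DTA-1, where the libraries of Il27ra (39.3 to 58.7 per kb) and Il10ra (33.2 to 52.0 per kb) overlapped. Even so, Il27ra was above Il10ra in each of the 6 libraries, by a ratio of 1.06 to 1.18 per kb. The order rests on exon lengths summed over all annotated isoforms, and the isoforms used by these cells are not known.

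Across 14 receptor complexes that use a member, 3 had every chain past the filter on low counts. These were the IL-10, IL-27 and IL-11 receptors. In 8 complexes a chain was at 0 in every library: Il12rb2 for IL-12 and IL-35, Il23r for IL-23, Il22ra1 for IL-22 and the type II IL-20 receptor, Ifnlr1 for interferon λ, and Lifr for LIF and CNTF. Il22ra2, which encodes a secreted IL-22 binding protein, was at 0 as well. The remaining 3, for IL-6, oncostatin M and the type I IL-20 receptor, had a chain with few counts.

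**Figure D1:**
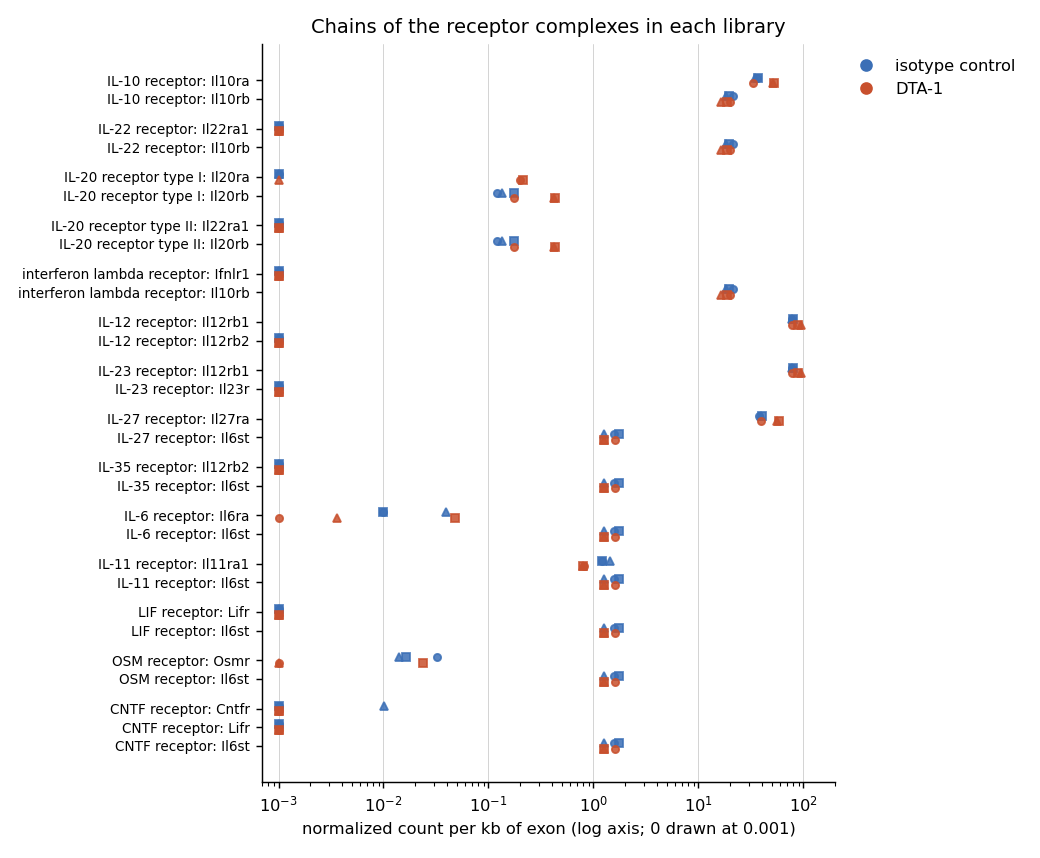
Normalized counts per kb of exon (log axis, a value of 0 is drawn at 0.001) of each chain of 14 receptor complexes, in 3 isotype control (blue) and 3 DTA-1 libraries (orange), with circles, squares and triangles for replicates 1, 2 and 3. Il12rb1, Il27ra, Il10ra and Il10rb lie above 10 per kb in all 6 libraries, Il6st lies between 1.25 and 1.76, and Il12rb2, Il23r, Il22ra1, Ifnlr1 and Lifr have no counts.

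Promoter sequences were read for the members with a RefSeq promoter sequence at hand and the same start site in RefSeq and GENCODE. The RefSeq promoter table held 4 of the 9 members, and the start site of Il20rb differed between the annotations. The members shown are thus set by availability. They are Il6st, transcribed in all libraries, Il6ra, near 0, and Il12rb2, at 0. The 250 bases before the start site are shown 5′ to 3′ on the gene's strand (RefSeq, GRCm38.p6), with CpG dinucleotides in capitals. Il6st lies on the plus strand at chr13:112463820-112464069, Il6ra on the minus strand at chr3:89913197-89913446 and Il12rb2 on the minus strand at chr6:67376189-67376438.
Il6st: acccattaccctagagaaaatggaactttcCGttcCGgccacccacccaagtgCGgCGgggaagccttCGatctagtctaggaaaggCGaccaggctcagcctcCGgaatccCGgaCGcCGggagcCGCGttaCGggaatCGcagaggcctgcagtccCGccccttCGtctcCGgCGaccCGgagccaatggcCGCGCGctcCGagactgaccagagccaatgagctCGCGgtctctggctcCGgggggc
Il6ra: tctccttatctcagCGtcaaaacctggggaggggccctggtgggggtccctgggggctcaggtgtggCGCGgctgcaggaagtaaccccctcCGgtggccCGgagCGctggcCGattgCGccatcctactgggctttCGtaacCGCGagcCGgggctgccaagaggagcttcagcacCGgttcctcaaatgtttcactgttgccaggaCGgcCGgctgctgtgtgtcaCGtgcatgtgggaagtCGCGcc
Il12rb2: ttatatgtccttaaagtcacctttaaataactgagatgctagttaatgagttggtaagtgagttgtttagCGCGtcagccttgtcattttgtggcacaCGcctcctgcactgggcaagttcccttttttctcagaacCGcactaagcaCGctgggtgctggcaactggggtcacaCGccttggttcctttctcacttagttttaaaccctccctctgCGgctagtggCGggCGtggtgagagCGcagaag
The Il6st window held 26 CpG dinucleotides and 66.0% G and C, the Il6ra window 18 and 65.2%, and the Il12rb2 window 10 and 50.0%. The median of 32851 mouse promoter windows of this length was 6 CpG dinucleotides, and 9.6% of them held at least 26. At least 18 were held by 21.7% and at least 10 by 37.8%, so the windows of all 3 genes were above the median, whether the gene had many counts (Il6st), few (Il6ra) or none (Il12rb2). The STAT motif TTCNNNGAA, which reads the same on both strands, had 1 match in the Il12rb2 window and none in the others, against 7% of all windows with a match. The NF-κB motif had no match on either strand in the 3 windows, against 7.3% of all windows. A match is a description of these letters and not a site.

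Il10 itself was transcribed at a low level, with no detectable difference between the groups. Its gene (chromosome 1, 131019845 to 131024974) encodes a cytokine that restrains macrophages and dendritic cells. In the order of replicates 1, 2 and 3, used throughout, it had 30, 25 and 25 counts with isotype control, compared with 31, 24 and 28 with DTA-1, or 0.848, 0.713 and 0.709 against 1.00, 0.769 and 0.878 normalized counts. The groups overlapped, and the highest library was DTA-1 replicate 1. In log2 terms DTA-1 differed from isotype control by 0.22 (standard error, SE, of 0.44, adjusted p = 0.943 by edgeR). The 95% confidence interval ran from 0.594-fold to 2.29-fold, so a change within it was not detectable at this depth.

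The ligand-binding IL-10 receptor chain was higher in DTA-1 replicates 2 and 3, while the shared chain overlapped between the groups. Il10ra (chromosome 9, 45253837 to 45269149) had 126, 128 and 120 normalized counts with isotype control, compared with 116, 182 and 178 in DTA-1 replicates 1, 2 and 3. DTA-1 replicate 1 lay below every isotype control library and the other DTA-1 libraries above all of them. On the log2 scale the difference came to 0.35 (SE 0.14, adjusted p = 0.655 by edgeR) with all libraries and 0.53 (SE 0.06, adjusted p = 0.00322 by edgeR, or 1.44-fold) without DTA-1 replicate 1.
Il10rb (chromosome 16, 91406164 to 91425834) encodes the chain that IL-10 shares with IL-22 and interferon λ. It had 80.6, 73.6 and 70.2 normalized counts with isotype control, against 75.9, 70.5 and 61.8 in DTA-1, and the groups overlapped. The gene model Gm21970 overlaps it on the same strand over 13289 bases, with a mean of 44.9 counts against 2405 for Il10rb. This gave a log2 fold change of −0.11 (SE 0.09, adjusted p = 0.841 by edgeR), and −0.18 (edgeR adjusted p = 0.452) without DTA-1 replicate 1.
The ratio of the chains within a library does not depend on normalization. Per kb, Il10ra stood to Il10rb as 1.70, 1.89 and 1.87 with isotype control, but as 1.67, 2.81 and 3.14 in DTA-1. The means, 1.82 ± 0.103 and 2.54 ± 0.773, differed by less than the spread between the DTA-1 libraries (two-sided exact permutation test on log2 ratios, p = 0.4, where 3 against 3 libraries cannot give less than 0.1). A lower or higher level in these bulk libraries cannot tell fewer expressing cells from less RNA per cell, which holds for each gene here.

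**Figure D2:**
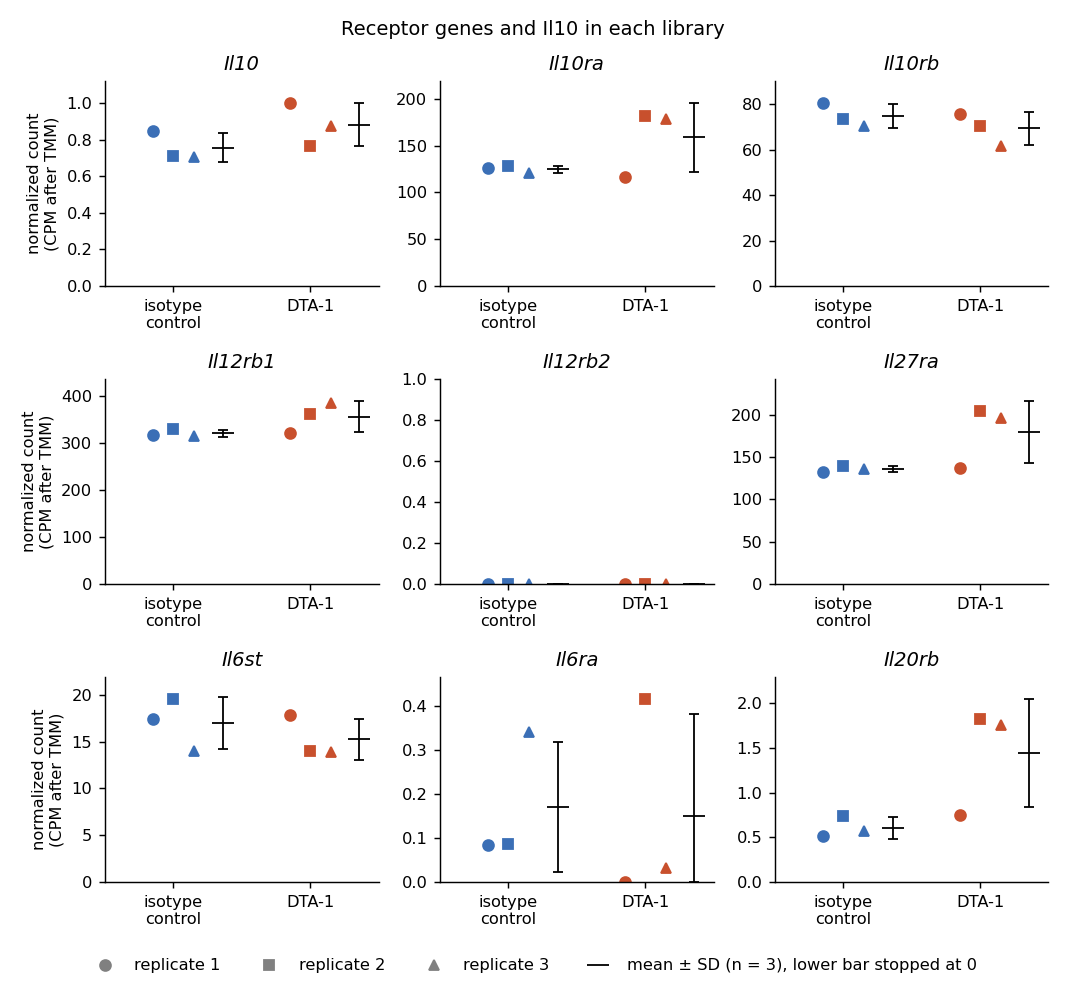
Normalized counts (CPM after TMM) of the 9 genes in each library, on linear axes from 0, with circles, squares and triangles for replicates 1, 2 and 3 and a bar for the mean ± SD (n = 3). For Il10ra, Il12rb1, Il27ra and Il20rb the squares and triangles of DTA-1 lie above every isotype control library, while the circle (DTA-1 replicate 1) lies near them.

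Il27ra, which encodes the chain specific to IL-27, was likewise higher in DTA-1 replicates 2 and 3, and its partner Il6st overlapped between the groups. Il27ra (chromosome 8, 84030294 to 84042589) had 133, 139 and 137 normalized counts with isotype control, compared with 137, 205 and 197 in DTA-1. DTA-1 replicate 1 lay inside the range of isotype control. As a log2 fold change, the difference was 0.40 (SE 0.12, adjusted p = 0.627 by edgeR) with all libraries. Without DTA-1 replicate 1 it was 0.56 (SE 0.06, adjusted p = 0.00199 by edgeR, or 1.47-fold).
Il6st (chromosome 13, 112464070 to 112510086) had 17.4, 19.6 and 14.0 normalized counts with isotype control, against 17.8, 14.1 and 13.9 in DTA-1, and the groups overlapped. The log2 fold change of Il6st was −0.15 (SE 0.16, adjusted p = 0.872 by edgeR), and −0.28 (edgeR adjusted p = 0.516) without DTA-1 replicate 1. Per kb, gp130 transcripts were the scarcer of the pair in every library, with Il27ra to Il6st ratios of 24.2, 22.6 and 31.0 with isotype control, against 24.5, 46.3 and 44.8 with DTA-1 (two-sided exact permutation test on log2 ratios, p = 0.2, smallest possible 0.1).
Of the subunits of IL-27 itself, Ebi3 was abundant and Il27, which encodes the p28 subunit, was not detected beyond 4 counts in any library. Ebi3 had 62.4, 56.9 and 58.8 normalized counts with isotype control, compared with 55.0, 85.8 and 86.2 in DTA-1. In log2 terms DTA-1 differed from isotype control by 0.35 (edgeR adjusted p = 0.657), and 0.54 (SE 0.08, adjusted p = 0.0109 by edgeR) without DTA-1 replicate 1. As with Il10ra, DTA-1 replicate 1 was the lowest of the 6 libraries and the other DTA-1 libraries were the highest.

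**Figure D3:**
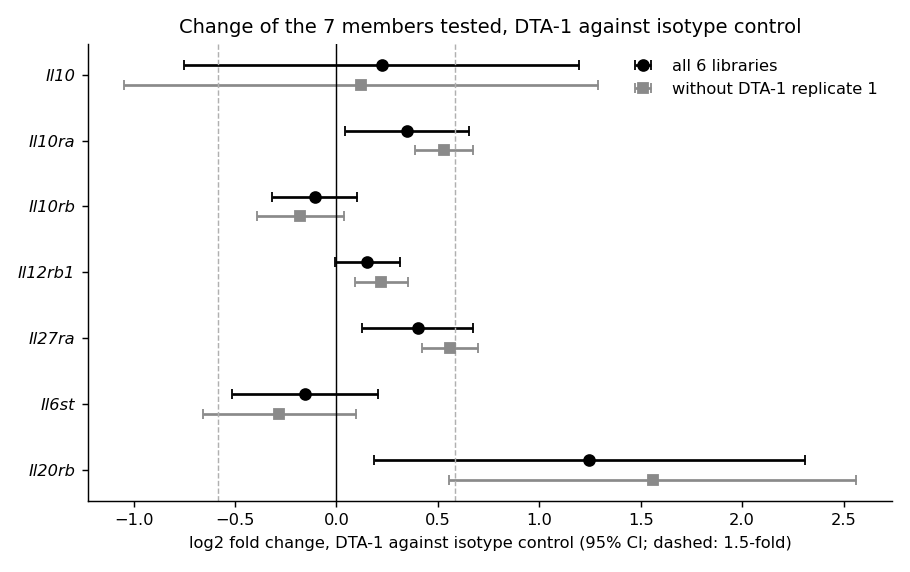
Log2 fold change of DTA-1 against isotype control for the 7 genes tested, with 95% confidence intervals, over all 6 libraries (black circles) and without DTA-1 replicate 1 (grey squares); dashed lines mark 1.5-fold. The intervals are not adjusted for the number of genes tested. Those of Il10ra, Il27ra and Il20rb lie above 0 in both comparisons, and that of Il12rb1 only without DTA-1 replicate 1. Those of Il10, Il10rb and Il6st include 0 in both comparisons. With all 6 libraries the edgeR adjusted p of Il10ra, Il12rb1, Il27ra and Il20rb was 0.627 to 0.702.

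Il12rb1 was the most abundant of the receptor genes per kb, without either of its partners. Il12rb1 (chromosome 8, 70808449 to 70821424), the chain shared by IL-12 and IL-23, had 317, 329 and 316 normalized counts with isotype control, against 321, 363 and 386 in DTA-1. DTA-1 replicate 1 lay inside the isotype control range and the other DTA-1 libraries above it. On the log2 scale the difference came to 0.15 (SE 0.07, adjusted p = 0.702 by edgeR), and 0.22 (SE 0.06, adjusted p = 0.110 by edgeR) without DTA-1 replicate 1, where DESeq2's Wald test gave an adjusted p of 0.0122.
Il12rb2 (chromosome 6, 67291318 to 67376188), the signalling chain of the IL-12 receptor, had 0 counts in all 6 libraries, and so had Il23r, its counterpart for IL-23. Il12rb2 overlaps Serbp1 on the other strand over 6420 bases, with a mean of 9730 counts, and how reads shared by overlapping genes were assigned is not given in the sources used here. Genes that IL-12 induces through STAT4 were in part absent as well. Ifng had 0 counts in every library, and Tbx21, which encodes T-bet, had 0, 3 and 0 counts with isotype control, compared with 15, 0 and 0 in DTA-1. Of 8 such genes 6 were tested and none was called in either comparison. Among them Il18rap, a chain of the IL-18 receptor, was at 96.3 ± 5.26 normalized counts with isotype control, against 104 ± 9.70 in DTA-1. Stat4 itself was present, at 103 ± 13.8 and 96.0 ± 10.9 normalized counts. The IL-12 and IL-23 subunit genes Il12a and Il12b had 0 counts throughout, and Il23a had at most 3.

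Il6ra (chromosome 3, 89864059 to 89913196), which encodes the IL-6 binding chain, was at the limit of detection. It had 3, 3 and 12 counts with isotype control, compared with 0, 13 and 1 in DTA-1, too few to be tested with all libraries. ADAM10 and ADAM17 are the proteases that release this chain from the cell surface. Their genes, by contrast, had 148 ± 7.44 and 111 ± 9.83 normalized counts with isotype control, against 153 ± 2.76 and 130 ± 12.9 in DTA-1. Neither gene had an edgeR adjusted p under 0.05 in either comparison. Without DTA-1 replicate 1 DESeq2's Wald test gave Adam17 an adjusted p of 0.0202, where 5.73% of its genes were under 0.05.
Several gp130 ligands were transcribed by these cells, with few or no counts of the chains that bind them. Osm, which encodes oncostatin M, had 83.7, 80.2 and 84.5 normalized counts with isotype control, compared with 84.7, 97.7 and 90.2 in DTA-1. The groups were just apart for Osm, with a log2 fold change of 0.13 (SE 0.08, adjusted p = 0.738 by edgeR). Its receptor gene Osmr had 14, 7 and 6 counts with isotype control, against 0, 9 and 0 in DTA-1. Lif had 10.2 ± 1.81 and 11.7 ± 1.90 normalized counts, while Lifr was at 0 in all libraries, and Cntfr had 1 count in 1 library. Il6 had 2.54, 3.22 and 2.41 normalized counts with isotype control, compared with 2.04, 1.86 and 1.60 in DTA-1, so the groups did not overlap. For Il6 the log2 fold change was −0.57 (SE 0.29, adjusted p = 0.726 by edgeR). Of the 7 ligand genes 4 were tested and none was called.
Il11ra1, the IL-11 receptor chain, had 5.37, 5.45 and 6.46 normalized counts with isotype control, against 3.66, 3.59 and 3.58 in DTA-1, and here DTA-1 replicate 1 lay with the other DTA-1 libraries. This gave a log2 fold change of −0.67 (SE 0.21, adjusted p = 0.627 by edgeR), and −0.69 (edgeR adjusted p = 0.219) without DTA-1 replicate 1. This value is uncertain, as the locus overlaps Dctn3 and Galt, each with more counts. Fibroblast markers, 7 genes of which none was at 0 in every library, summed to 2.20 to 8.42 normalized counts in isotype control, 0.873 in DTA-1 replicate 1 and 0.288 to 3.98 in DTA-1 replicates 2 and 3. Their part in the values of Il11ra1 was not tested.

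Il20rb was the single member with every DTA-1 library above every isotype control library. Il20rb (chromosome 9, 100457719 to 100486788) encodes a receptor chain for IL-19, IL-20 and IL-24, cytokines best known for acting on epithelia. It had 18, 26 and 20 counts with isotype control, against 23, 57 and 56 in DTA-1, or 0.509, 0.741 and 0.567 against 0.744, 1.83 and 1.76 normalized counts. DTA-1 replicate 1 exceeded isotype control replicate 2 by 0.744 to 0.741 only. As a log2 fold change, the difference was 1.25 (SE 0.48, 95% confidence interval 0.18 to 2.31, unadjusted p = 0.0255 and adjusted p = 0.655 by edgeR). It was 1.56 (SE 0.45, adjusted p = 0.144 by edgeR) without DTA-1 replicate 1. Its partner chains were scarce or absent. Il20ra had 0 counts with isotype control, compared with 15, 16 and 0 in DTA-1, and Il22ra1 had none. Among the cytokines of this family Il24, chosen after its values were seen, had 0 counts with isotype control, against 0, 11 and 11 in DTA-1, and Il19 and Il20 had none. Il22 did not exceed 2 counts.

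Counted together, 7 of the 9 genes passed the filter on low counts, and Il12rb2 and Il6ra did not. By edgeR 0 of the 7 were called with all libraries (background 0.0%), and likewise by DESeq2 (background 0.099%), while 1, Il20rb, met the looser rule of an unadjusted p with 1.5-fold, against 2.35% of all genes. The groups were apart for 1 of the 7, against 11.3% of all genes tested. The median log2 fold change of the 7 was 0.22, and that of all 14361 genes was −0.01. Without DTA-1 replicate 1, 8 of the 9 were tested. The groups were then apart for 4 of the 8, all higher in DTA-1. Of all 14911 genes tested, 2289 were apart and higher and 2367 apart and lower, so this pattern was common. At an adjusted p under 0.05 there were 2, Il10ra and Il27ra, where 1.7% of 14911 genes passed this rule. DESeq2 added Il12rb1, making 3, against 5.73% of its genes, and limma gave the same 2, against 1.94%. None of these genes reached 1.5-fold, so 0 of the 8 were called, against 0.744% of all genes. Which library was left out was decisive for these calls. With any of the other 5 libraries left out, no member had an adjusted p under 0.05.

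No gene of the wider lists was called with all libraries, and 3 were called without DTA-1 replicate 1. These were Junb, listed as a STAT3 target, and Bhlhe40 and Id3, listed as regulators of Il10. Over 72 genes of the wider lists (partner chains, ligands, kinases and STATs, feedback genes, targets, regulators of Il10 and proteases) 48 were tested, with 25 fold changes above and 23 below 0. The median of their log2 fold changes stood at 0.01. None was called (0 genes, against 0.0%), and 3 met the unadjusted p with 1.5-fold, against 2.35% of all genes, among them Il11ra1, lower, and Bhlhe40, higher. The groups were apart for 6 genes higher and 4 lower in DTA-1, against 11.3% of all genes in both directions. Without DTA-1 replicate 1 there were 3 calls among 49, against 0.744% of all genes, of which Junb and Bhlhe40 were higher and Id3 lower. All 6 kinases and STATs were abundant. Tyk2, the kinase bound by IL-12Rβ1 and IL-10Rβ, had 136 ± 4.36 and 155 ± 12.2 normalized counts (edgeR adjusted p = 0.657). Its groups were just apart, DTA-1 replicate 1 being at 141.5 and isotype control replicate 2 at 141.0. Stat3, the main relay of IL-10, IL-6 and gp130, had 450 ± 8.50 and 449 ± 9.65 (edgeR adjusted p = 0.998).
The feedback genes gave no call among 8. Socs3, an inhibitor that binds gp130, had 77.6 ± 12.5 normalized counts with isotype control, against 71.0 ± 5.84 in DTA-1, and Socs1 had 574 ± 42.4 and 556 ± 15.4. Of the 9 STAT3 target genes 8 were tested, and Junb, which encodes an AP-1 subunit with several other inputs, was the one called without DTA-1 replicate 1. Junb had 320, 296 and 340 normalized counts with isotype control, compared with 321, 517 and 551 in DTA-1, with log2 fold changes of 0.54 (edgeR adjusted p = 0.627) and, without DTA-1 replicate 1, 0.75 (edgeR adjusted p = 0.000610). Myc and Tnfrsf1b were apart between the groups, at 132 ± 4.44 against 151 ± 7.78 and 159 ± 1.89 against 177 ± 13.4 normalized counts (edgeR adjusted p = 0.632 and 0.692). Tnfrsf1b was just apart, at 161.6 in DTA-1 replicate 1 and 160.6 in isotype control replicate 1.
Among 10 regulators of Il10 transcription the calls without DTA-1 replicate 1 went in both directions. Bhlhe40, a repressor of Il10 in T cells, had 237, 267 and 254 normalized counts with isotype control, against 261, 456 and 436 in DTA-1. In log2 terms DTA-1 differed from isotype control by 0.61 (edgeR adjusted p = 0.627), and 0.82 (SE 0.06, adjusted p = 0.000204 by edgeR) without DTA-1 replicate 1. Id3, reported in IL-10-producing ILC2s, had 53.5, 55.5 and 55.6 normalized counts against 59.0, 36.7 and 33.0. For Id3 the log2 fold change was −0.35 (edgeR adjusted p = 0.722), and −0.65 (SE 0.10, adjusted p = 0.00960 by edgeR) without DTA-1 replicate 1. Maf, an activator of Il10, had 73.3, 66.8 and 72.6 normalized counts against 72.6, 54.5 and 53.7 (edgeR adjusted p = 0.717, and 0.0588 without DTA-1 replicate 1). Gata3 was lower and Ets1 higher in each DTA-1 library than in any isotype control library, by −0.08 and 0.09 on the log2 scale.

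**Figure D4:**
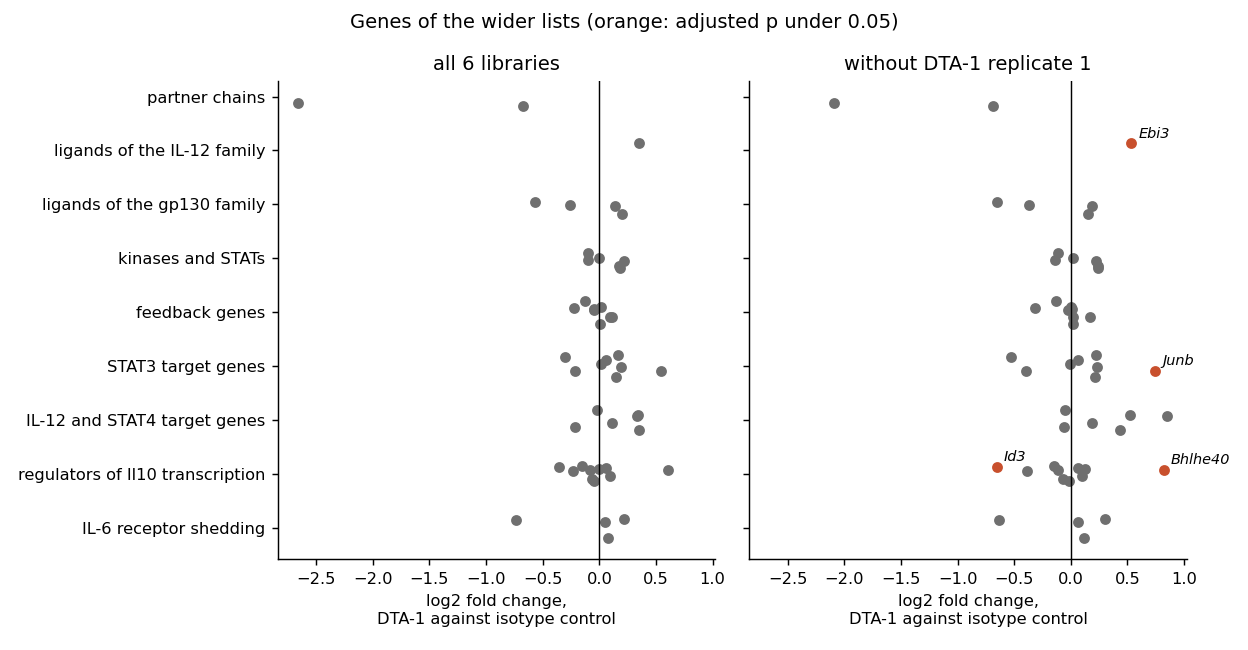
Log2 fold change of DTA-1 against isotype control for each tested gene of the wider lists, over all 6 libraries (left) and without DTA-1 replicate 1 (right), where Il24, testable there only, is not drawn; orange points have an edgeR adjusted p under 0.05. No gene is orange on the left; on the right Ebi3, Junb and Bhlhe40 are orange and higher, and Id3 is orange and lower.

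The genes whose levels over the 6 libraries most resembled those of the members were found among 8723 genes with a mean of at least 10 normalized counts, by Pearson's r of log2(normalized count + 1). With 6 libraries and so many genes a high r is easily reached, and it is given as a description. For Il27ra they were Bhlhe40, Calr and Lman1 (r = 0.998, 0.998 and 0.997). Il20rb was most like Pdia4, Hspa5 and Bhlhb9 (r = 0.999, 0.996 and 0.996). Calr, Lman1, Pdia4 and Hspa5 encode proteins of the secretory pathway, and Hspa5, the chaperone BiP, had 1748, 1873 and 1817 normalized counts with isotype control, compared with 1944, 2529 and 2444 in DTA-1. Il10ra was most like Surf4, Nlrp3 and Hsp90ab1 (r = 0.998, 0.997 and 0.996). Il12rb1 was most like Trim16 and Otud6b, with r of 0.998 and 0.995, Il6st like Frs2, Exoc3 and March7, with r of 0.988, 0.987 and 0.985, and Il10rb like Ndufs7, Spc25 and 2700099C18Rik, with r of 0.997, 0.992 and 0.987. Il10 was most like Pabpc1, Hdac8 and Rnaseh1, with r of 0.983, 0.978 and 0.977.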

How the data were processed

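RNA-seq libraries of ILC2s (3 isotype control, 3 DTA-1) were analysed from the gene-level table the authors deposited. Its expected counts, not normalized, were estimated by the authors with Partek and need not be whole. The submitters' processing notes also name bcl2fastq 2.17.1.14, STAR 2.5.3a and build mm10. Strand and annotation release are not given in the sources used here. Start sites were the same as in the GENCODE mouse release M21 for 48290 of 49721 shared symbols. Exon lengths and gene ends were taken from that release.

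After rounding, filterByExpr took out genes of low count. DTA-1 and isotype control were compared with the edgeR 4.0.16 quasi-likelihood test (TMM, robust dispersions, no covariate) in R 4.3.3, with Benjamini-Hochberg adjustment over all genes tested. Following the study's thresholds, genes were called at 1.5-fold or more with an adjusted p below 0.05. Alternatives were limma 3.58.1 (prior count of 2), DESeq2 1.42.0 with its filtering and its size factors, total counts, no filter, at least 10 counts in every library, a replicate block and each library left out in turn. Plots and tables were made with Python 3.11.15, numpy 2.4.6, scipy 1.17.1, pandas 2.3.3 and matplotlib 3.10.9. In data simulated for this comparison over 14361 genes, 198 of 200 genes changed 2-fold were recovered, with 4 calls among the others. The changed genes were drawn from those with a mean of at least 10 CPM, and no simulated library stood apart from its group. The recovery therefore does not hold for genes of lower count, for smaller changes or for a group with a library such as DTA-1 replicate 1.

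The members and lists were chosen with earlier results of these data known. All members were named. Of the wider lists, genes were named that passed a test or whose groups did not overlap, the partner chains and up to 4 abundant genes, and others only for their counts. Il24, Hspa5, Junb, Id3, Maf, Lif, Stat3, Stat4, Ifng and Tbx21 were named with their values seen. Some genes that this rule would name are not reported here.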

Additional observations from a re-analysis of the deposited data

How the results depend on the processing

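The count of differentially expressed genes was 0 with edgeR under DESeq2's size factors, total counts and the filter of 10 counts in every library, with limma, and without the fold limit. It was 20 with DESeq2's Wald test, 2 with no filter and 337 at the unadjusted p with 1.5-fold. With a library left out it ranged from 0 to 111, the highest being without DTA-1 replicate 1, where DESeq2 gave 168 and limma 120 (both added after the data were seen). Members called were 0 under all of these except the unadjusted p, with 1 (Il20rb). Calls among the wider lists ranged from 0 to 3, the 3 being without DTA-1 replicate 1 by each tool. With the replicate block 1 gene was called and no member. Deviations of same-numbered libraries from their group means correlated at 0.00535, −0.0215 and 0.0214, and those of differently numbered libraries at −0.0488 to 0.0428. With 3 libraries in each group, these values cannot decide whether the numbers pair the libraries.

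Of the 7 members tested with all libraries, none changed the sign of its log2 fold change under the alternatives. Il6ra, tested only under some of them, did: its value was −0.18 with no filter, −0.50 without isotype control replicate 1 or 2, 0.38 without DTA-1 replicate 1 and 0.29 without DTA-1 replicate 3 (adjusted p of 0.925 to 0.999 by edgeR and DESeq2). With libraries left out the log2 fold change ranged from 0.12 to 0.32 for Il10, 0.25 to 0.53 for Il10ra, −0.18 to −0.03 for Il10rb, 0.09 to 0.22 for Il12rb1, 0.30 to 0.56 for Il27ra, −0.28 to −0.04 for Il6st and 1.05 to 1.56 for Il20rb. Without DTA-1 replicate 1, Il10ra had an adjusted p of 2.42e-10 with DESeq2 and 0.00287 with limma, and Il27ra 2.04e-12 and 0.00169. Over all alternatives the adjusted p of each member that could be tested reached 0.999. Depth limits Il10, Il20rb and Il6ra, with 57 counts or fewer in a library.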
